A study of Bos taurus with 5 samples.

Results

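MYBPC1 and MYBPC2, the slow and fast skeletal muscle genes for myosin-binding protein C, were described in the back muscle longissimus dorsi of 5 Jiaxian Red cattle aged 18 months. The members were the rows of the deposited table whose gene name is MYBPC1 or MYBPC2: 2 of 9022 genes and 3 of 13391 transcripts. Each animal gave 1 library, no treatment or other tissue was included, and the 5 libraries formed 1 group, so levels were compared between genes within a library and described across animals. Values are FPKM, fragments scaled to transcript length and to the mapped fragments of the library, so genes can be compared by level. The title of the series concerns POLB in primary bovine myocytes, which were not analysed here.

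Myosin-binding protein C is a chain of immunoglobulin and fibronectin type III domains that sits in regular stripes along the myosin thick filament. Its tail end binds myosin and titin, while its head end reaches towards actin and the myosin heads and tunes how many heads are free to bind, a setting that phosphorylation changes. In human and mouse muscle the MYBPC1 protein, despite its name as the slow form, is made in both slow and fast fibres and in many splice forms. MYBPC2 is the form of fast fibres, and MYBPC3 is the form of the heart.

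The labelled tissue was checked against its markers. Of 8 skeletal fibre markers 6 were listed, and their summed FPKM ran from 16204 in library 1 to 18931 in library 4. Among them CKM was low, at 16.2 ± 12.3 FPKM (SD, n = 5), whereas the other listed ones averaged 2252 to 5134 FPKM. Of 7 heart markers only MYH6 and TNNT2 were listed, summing to 28.9 to 43.9 FPKM. MYH6 alone averaged 33.6 FPKM, above CKM. The listed genes also leave out such muscle genes as TTN and TNNC2, so a marker that is not listed cannot be read as not expressed. MYBPC3 and MYBPH, the other C protein gene of heart and a related skeletal gene, were not analysed here. The summed FPKM of a whole library ran from 193706 to 223251, and read depth is unknown because no counts were given. In bulk tissue, fewer fibres of a type and less RNA per fibre cannot be told apart.

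MYBPC1 was among the most abundant messages listed for this muscle and differed little between animals. Libraries 1 to 5 held 2257, 2547, 2709, 2798 and 2843 FPKM of it, with a mean of 2631 ± 238 FPKM (SD, n = 5). Library 1 was the lowest, and the highest value was 1.26 times the lowest. MYBPC1 alone made up 1.27% ± 0.0792 of the summed FPKM of a library (SD, n = 5). It ranked 14th of the 6136 listed genes with a mean of at least 1 FPKM, the limit used here for a detected gene.

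MYBPC2 was lower by several fold but still an abundant message, at rank 51. Libraries 1 to 5 held 308, 379.8, 389.95, 298 and 380.1 FPKM of it, and the mean was 351 ± 44.2 FPKM (SD, n = 5). Libraries 1 and 4 lay together below the other 3, with no value between 308 and 379.8 FPKM. The levels of MYBPC1 and MYBPC2 did not overlap. Fibroblast genes were highest in the same 2 libraries: the sum of the 3 listed of 5 markers (COL3A1, COL1A2 and PDGFRA) was 845 FPKM in library 1 and 769 in library 4, against 394, 541 and 460 in libraries 2, 3 and 5. PDGFRA by itself had 25.9, 19.9, 26.9, 32.1 and 26.8 FPKM in libraries 1 to 5, so that library 1 was not high for it. The part of connective tissue in the MYBPC2 values was not tested.

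**Figure D1:**
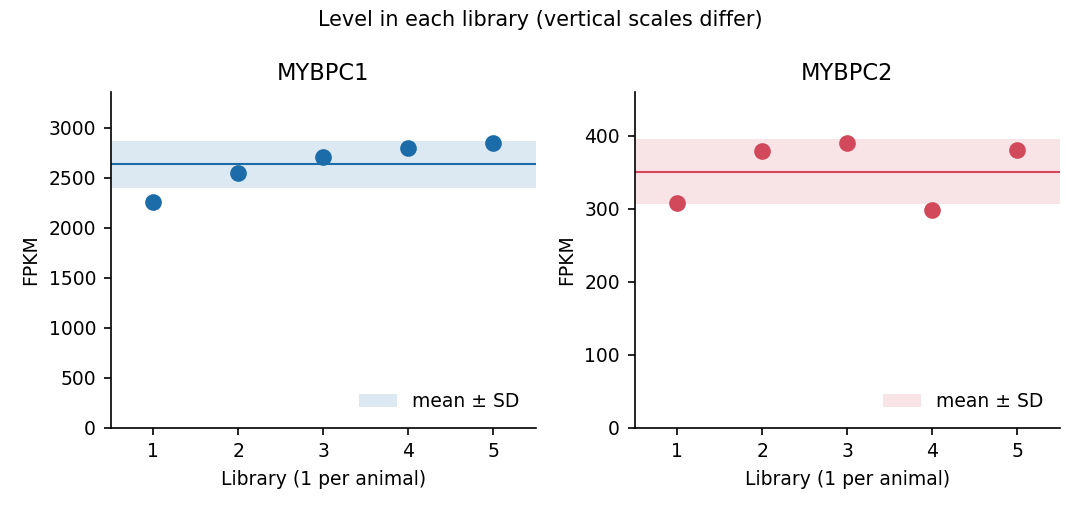
FPKM of MYBPC1 (left) and MYBPC2 (right) in each of the 5 libraries, 1 per animal; the line is the mean and the band the mean ± SD, and the vertical scales differ. MYBPC1 runs from 2257 to 2843 FPKM with library 1 lowest, while MYBPC2 has libraries 1 and 4 at 308 and 298 FPKM and the others at 379.8 to 389.95 FPKM.

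The ratio of MYBPC1 to MYBPC2 was therefore large in every animal and highest in library 4. Across libraries 1 to 5 it was 7.33, 6.71, 6.95, 9.38 and 7.48. The mean log2 ratio, on the log2(FPKM + 1) scale, was 2.91 ± 0.099 (limma moderated SE, n = 5). Every SE below is of this kind, with a variance shrunk towards that of all ratios fitted. In a limma fit of MYBPC1 against all 6135 other detected genes the Benjamini-Hochberg adjusted p was 2.89e-08, with MYBPC1 higher in 5 of 5 animals. The same fit called MYBPC1 higher than 99.7% of those genes, so such a call is not particular to MYBPC2. Flipping the signs of the 5 log2 ratios in an exact permutation test, two-sided, gave p = 0.0625, the smallest that 5 animals allow. MYBPC1 held 88.0%, 87.0%, 87.4%, 90.4% and 88.2% of the FPKM of the pair in libraries 1 to 5.

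Other pairs of slow and fast filament genes ordered the animals in different ways. These pairs were chosen after values had been seen. TNNI1 over TNNI2, the slow and fast forms of the inhibitory troponin, was 1.62, 1.21, 1.21, 0.682 and 1.11 in libraries 1 to 5, so that library 4 had the lowest value where MYBPC1 over MYBPC2 had its highest. For troponin T, which anchors the troponin complex on tropomyosin, TNNT1 over TNNT3 was 0.820, 0.587, 0.852, 0.790 and 0.838, with library 2 apart from the rest. The regulatory myosin light chains, MYL2 over MYLPF, gave 0.163, 0.148, 0.147, 0.226 and 0.224, with libraries 4 and 5 above the other 3, so that library 4 was highest here as it was for MYBPC1 over MYBPC2. TNNT1 and MYL2 have gaps in their transcript numbers, so their ratios may rest on partial sums.

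The deposited table resolved MYBPC2, but not MYBPC1, into transcripts. MYBPC1 (ENSBTAG00000011392) had 1 listed transcript, MYBPC1-201, on chromosome 5 from 65398362 to 65500279, a span of 101918 bases. MYBPC2 (ENSBTAG00000020080) had MYBPC2-202 on chromosome 18 from 56581198 to 56607181 and MYBPC2-201 from 56581198 to 56605970, so that MYBPC2-202 reached 1211 bases further at the higher coordinate. Coordinates are those of the deposited table, whose build is not settled: the submitters' processing notes name UMD3.1, whereas both genes overlap their places in a RefSeq gene table of ARS-UCD2.0. That table names 12 RefSeq transcripts for MYBPC1 and 2 for MYBPC2, so the splice forms of MYBPC1 are not told apart by its single value here.

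MYBPC2-202 carried most of the MYBPC2 signal in every animal. It was at 254, 331, 366, 284 and 328 FPKM in libraries 1 to 5, and MYBPC2-201 at 53.8, 48.5, 24.3, 14.3 and 52.0 FPKM. MYBPC2-201 thus varied 3.77-fold between animals, with libraries 3 and 4 well below the other 3, whereas MYBPC2-202 varied 1.44-fold. Library 1 was the lowest for MYBPC2-202 and the highest for MYBPC2-201. Library 4, lowest for the sum of both, was also lowest for MYBPC2-201 and second lowest for MYBPC2-202.

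The share of MYBPC2-202 in the gene was 82.5%, 87.2%, 93.8%, 95.2% and 86.3% in libraries 1 to 5, a mean of 89.0% ± 5.33 (SD, n = 5). MYBPC2-202 exceeded MYBPC2-201 by a mean log2 ratio of 3.14 ± 0.33 (SE, n = 5), in 5 of 5 animals. The limma adjusted p was 1.92e-04 over the 2421 detected genes with at least 2 listed transcripts, of which 74.1% had a leading transcript called higher than the next. Since the leading transcript was ranked on the same libraries, a call of this kind is common and says little about MYBPC2. Among 1468 such genes with exactly 2 transcripts, the median leading share was 89.5% with a median SD of 5.20 percentage points, close to the values of MYBPC2. Among 94 genes with a mean of at least 100 FPKM the median SD was 1.1 points, and 81.9% of them had a steadier leading share than MYBPC2. The values are estimates for overlapping transcripts, and how well they separate the pair could not be checked without reads.

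**Figure D2:**
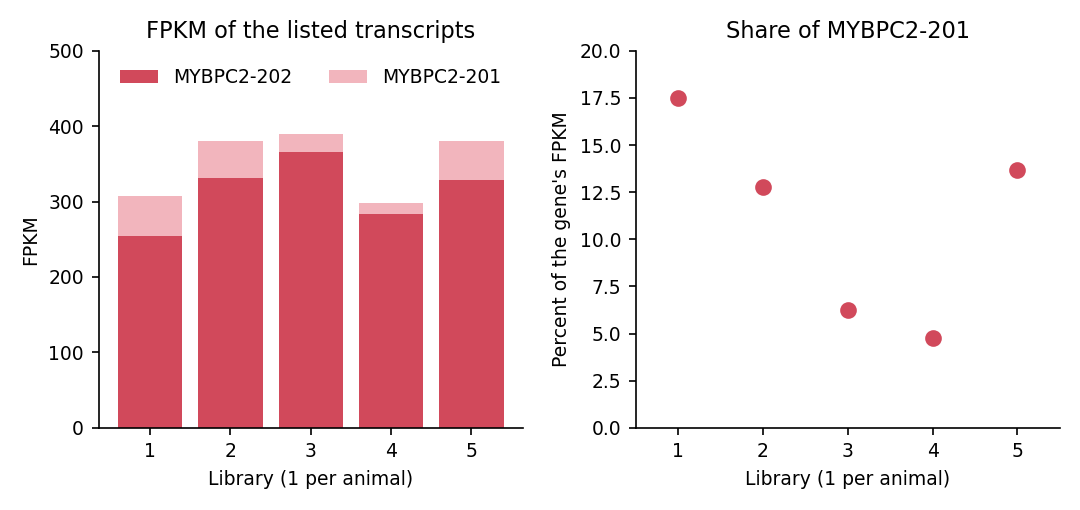
Left, FPKM of MYBPC2-202 (dark) and MYBPC2-201 (light) stacked to the gene's sum in each library; right, the percent of that sum in MYBPC2-201. MYBPC2-201 makes up 17.5% of the gene in library 1 and 4.79% in library 4, while MYBPC2-202 stays between 254 and 366 FPKM.

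Among the genes listed, which leave out such muscle genes as MYH1, MYH2, MYH4, TTN and TNNC2, MYBPC1 was called higher than 6119 of the 6135 other detected genes, or 99.7%, and lower than 10, or 0.163% (limma, adjusted p under 0.05). The 6 named genes above it were COX1 and COX2, which encode core subunits of cytochrome c oxidase, and the filament genes ACTA1, TPM2, TNNC1 and MYH7. The other 4 had no symbol. TCAP, FHL1, GAPDH, MYLPF, ALDOA and TNNT3 were not separated from it. TCAP, the titin cap protein of the Z-disc, and the glycolytic gene GAPDH were next above by mean, at 2823 ± 586 and 2643 ± 395 FPKM, and MYLPF and the glycolytic gene ALDOA next below, at 2608 ± 501 and 2571 ± 597 FPKM (SD, n = 5). Every ratio in this fit shares MYBPC1, so the calls are not independent of each other.

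MYBPC2 was called higher than 6072 of the 6135 others, or 99.0%, and lower than 39, or 0.636%. Next above it stood EEF1A2, the form of a translation elongation factor made in muscle and neurons, at 393 ± 16.4 FPKM, and RPS27A, which encodes ubiquitin fused to a ribosomal protein, at 376 ± 72.7 FPKM. Next below were ANKRD23, an ankyrin repeat protein of striated muscle that binds titin, at 351 ± 50.3 FPKM, and SLN, the calcium pump regulator sarcolipin, at 347 ± 158 FPKM (SD, n = 5). None of these 4 was separated from MYBPC2, with adjusted p from 0.198 to 0.975 in limma.

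Among the myosins that it binds, MYBPC1 lay close to the most abundant ones. MYH7, the slow myosin heavy chain, averaged 3329 ± 276 FPKM, and MYBPC1 reached 0.633, 0.796, 0.795, 0.786 and 0.976 of it in libraries 1 to 5. MYBPC1 was below MYH7 in 5 of 5 animals, by a log2 ratio of -0.34 ± 0.11 (SE, n = 5; limma adjusted p = 0.0164). MYLPF, the fast regulatory light chain, was not separated from MYBPC1, with ratios of MYBPC1 to MYLPF from 0.837 in library 4 to 1.15 in library 1 and an adjusted p of 0.78. MYBPC1 exceeded MYL6B, a slow alkali light chain, at 2040 ± 494 FPKM, in 4 of 5 animals and by a log2 ratio of 0.39 ± 0.12 (adjusted p = 0.0157), a call that was lost without library 2 (0.0554) or library 5 (0.0559). MYH1, MYH2 and MYH4, the adult fast heavy chains, were not analysed here, so no ratio of C protein to total myosin was formed.

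MYBPC2 lay well below the fast light chains and was not separated from the slow MYL2. MYL1, the fast alkali light chain, averaged 1065 ± 127 FPKM, and MYBPC2 stood at 0.362, 0.356, 0.348, 0.252 and 0.345 of it in libraries 1 to 5. Against MYLPF the ratio was 0.157, 0.152, 0.142, 0.0892 and 0.153. In both series libraries 1, 2, 3 and 5 lay close together and library 4 was apart and low. MYBPC2 was lower than MYL1 by a log2 ratio of -1.60 ± 0.13 and lower than MYLPF by -2.88 ± 0.15 (SE, n = 5; limma adjusted p = 1.04e-06 and 3.89e-08). MYL2 was above MYBPC2 in 4 of 5 animals, with a log2 ratio of MYBPC2 to MYL2 of -0.39 ± 0.21 and an adjusted p of 0.0963. The listed transcripts of MYL2 have a gap in their numbers, so its sum may be partial and this closeness is uncertain. Of the 9 detected genes in the myosin list MYBPC2 was higher than 4 and lower than 4, and MYBPC1 was higher than 7 and lower than 1. Over all other detected genes MYBPC2 was called higher than 99.0% and lower than 0.636%, and MYBPC1 higher than 99.7% and lower than 0.163%. The low members included the developmental heavy chains MYH3, at 1.54 ± 1.35 FPKM, and MYH8. MYH15 was under the detection limit, but it has a gap in its transcript numbers and its sum may be partial.

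In the group of titin and M-band genes, the lattice to which the tail of C protein and the middle of the thick filament are tied, MYBPC2 lay nearest to the myomesins. MYOM1 and MYOM2, which crosslink thick filaments at the M-band, averaged 288 ± 31.3 and 241 ± 32.1 FPKM (SD, n = 5). MYBPC2 was 1.14, 1.38, 1.15, 1.15 and 1.28 times MYOM1 in libraries 1 to 5, higher in 5 of 5 animals by a log2 ratio of 0.28 ± 0.11 (limma adjusted p = 0.0363). That call was lost without library 2 (0.137), library 3 (0.0718) or library 5 (0.117). Against MYOM2 the log2 ratio was 0.54 ± 0.14 (adjusted p = 0.00485), with MYBPC2 higher in 5 of 5 animals. MYOM3, another myomesin, averaged 73.5 ± 15.2 FPKM.

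FHL1, a LIM protein that binds the slow C protein in mouse muscle, averaged 2910 ± 453 FPKM. MYBPC1 stood at 0.933, 0.979, 0.939, 0.779 and 0.933 of FHL1 in libraries 1 to 5, below it in 5 of 5 animals but not called (log2 ratio -0.14 ± 0.087, adjusted p = 0.161). Library 4 was again the one apart, and FHL1 was at its highest there. CKM and FHL2 varied most in this group, CKM from 2.5 to 35.5 FPKM and FHL2 from 2.29 to 28.7 FPKM. The CKM values are low for the muscle creatine kinase gene, and the listed values of single genes may be incomplete. TTN, the titin gene, was not analysed here.

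Thin filament genes included the closest companion of MYBPC1 in this list. TPM2, the beta-tropomyosin gene, was at 3539, 4087, 4312, 4620 and 4457 FPKM in libraries 1 to 5. MYBPC1 was 0.638, 0.623, 0.628, 0.606 and 0.638 of TPM2, a mean of 0.627 ± 0.0133 (SD, n = 5), so that both genes were lowest in library 1 and the ratio hardly moved. Library 1 also had the lowest summed FPKM, 193706, and its part in the shared low was not tested. TPM2 was singled out as the closest on these same values. MYBPC1 was below TPM2 by a log2 ratio of -0.67 ± 0.075 and below ACTA1, the skeletal actin, by -0.96 ± 0.11. It was below TNNC1, the slow troponin C, by -0.58 ± 0.1 (moderated SE, n = 5). The limma adjusted p was 5.80e-05, 6.09e-05 and 8.09e-04 in that order. The SD of the 5 log2 ratios of MYBPC1 to TPM2 was 0.031. ACTA1 averaged 5134 ± 463 FPKM and TNNC1 3976 ± 830 FPKM. TNNT3, the fast troponin T, was below MYBPC1 in 4 of 5 animals and not called (adjusted p = 0.0614), but it was called without library 1 (0.0119). NEB, the giant thin filament gene nebulin, lay below MYBPC1 in 5 of 5 animals, at 1518 ± 148 FPKM.

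MYBPC2 was lower than 9 of the 12 thin filament genes listed and higher than TMOD1, ACTC1 and TPM1. ACTC1, the cardiac actin, varied most of these, from 7.58 to 39.3 FPKM, and the tropomyosin gene TPM1 ran from 8.28 to 15.4 FPKM. The listed transcripts of TPM1 have a gap in their numbers, so its sum may be partial. TNNI2, the fast inhibitory troponin, averaged 650 ± 114 FPKM, and MYBPC2 was 0.571, 0.566, 0.622, 0.357 and 0.656 of it in libraries 1 to 5, again with library 4 apart and low. Over the myosin, M-band and thin filament lists together, 29 detected genes, MYBPC1 was higher than 22, lower than 4 and not separated from 3. MYBPC2 was higher than 14, lower than 14 and not separated from MYL2. The median log2 ratio was 2.51 for MYBPC1 and -0.39 for MYBPC2 over these 29 genes, against 8.52 and 5.61 over all other detected genes. These lists hold abundant muscle genes by choice. Of all other detected genes, 99.7% were called below MYBPC1 and 99.0% below MYBPC2. Gaps in transcript numbers were found for 3 of 12 listed myosin genes, 3 of 8 M-band genes and 4 of 12 thin filament genes. The sums of such genes may be partial, and the counts above include some of them.

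**Figure D3:**
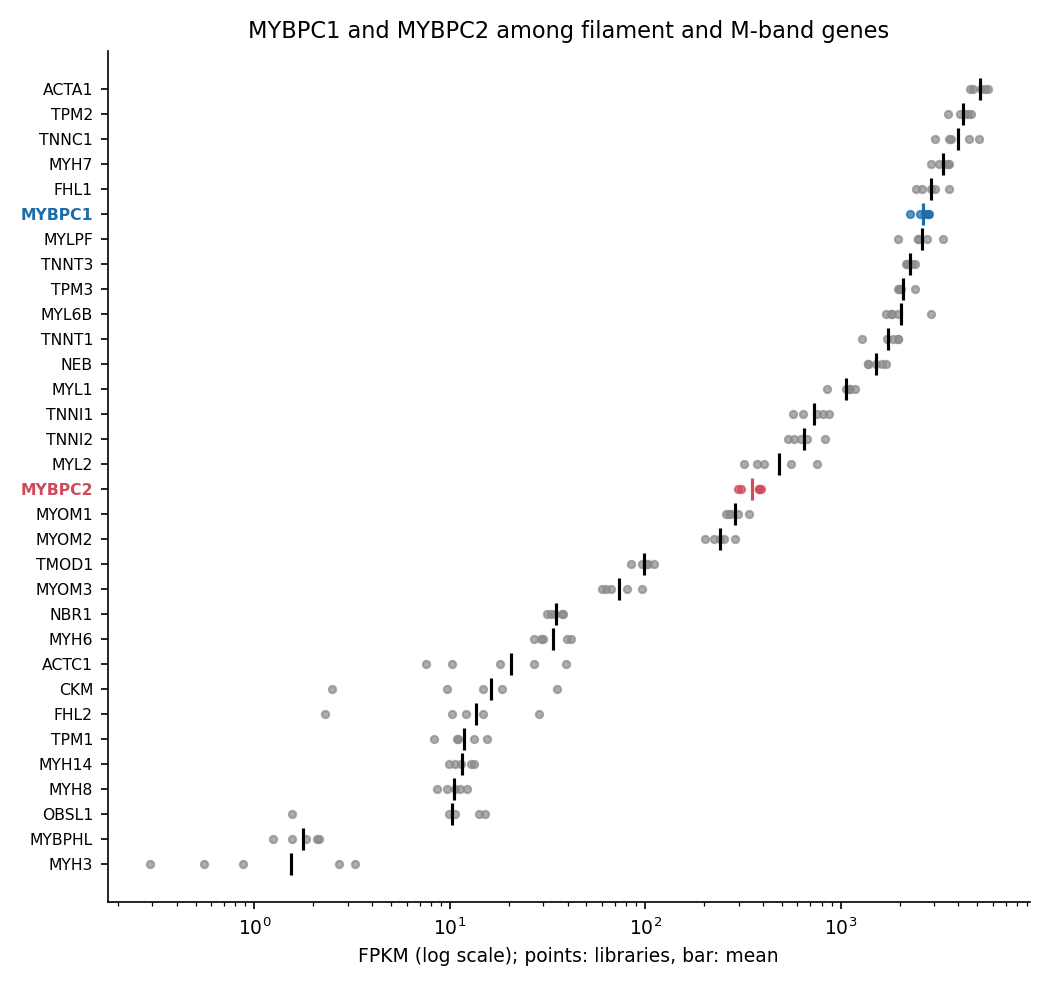
FPKM on a log scale of MYBPC1, MYBPC2, MYBPHL and the 29 detected genes of the myosin, M-band and thin filament lists, ordered by mean; points are the 5 libraries and bars the means. MYBPC1 sits in the uppermost group between FHL1 and MYLPF, and MYBPC2 lies between MYL2 and MYOM1.

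**Figure D4:**
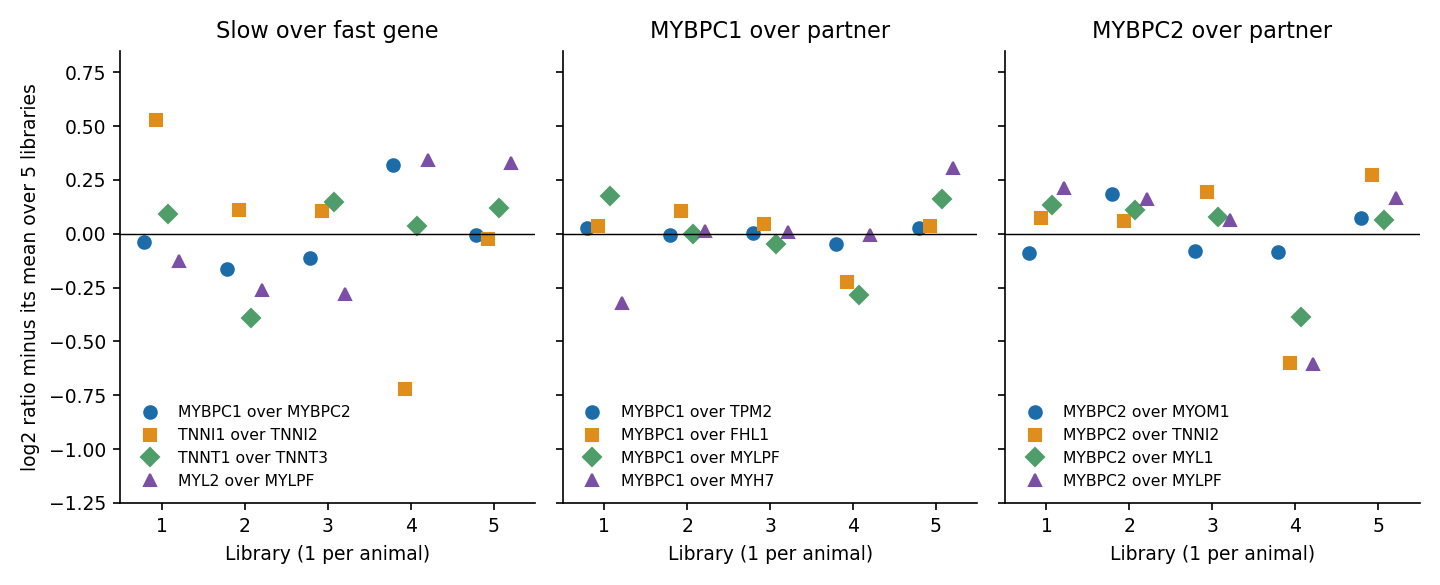
Log2 ratio of each pair in each library, minus the mean of that pair over the 5 libraries; markers are set slightly apart along the horizontal axis so that none is hidden. MYBPC1 over TPM2 stays near 0 in all libraries, while MYBPC2 over MYL1, MYLPF and TNNI2 drops in library 4 and MYBPC2 over MYOM1 does not.

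The remaining relative of the family, MYBPHL, which encodes a short protein related to MyBP-H, was listed at 1.77 ± 0.374 FPKM (SD, n = 5), far below both members. Genes for kinases and phosphatases of C protein or its filament had low listed values by comparison. Of 21 such genes 16 were listed and 10 detected, led by PRKAR2A and PRKAR1A, regulatory subunits of protein kinase A, at 79.1 ± 10.1 and 44.4 ± 3.94 FPKM. RPS6KA3, a ribosomal S6 kinase, averaged 42.2 ± 8.16 FPKM and CAMK2D, a calcium and calmodulin-dependent kinase, 40.6 ± 6.77 FPKM (SD, n = 5). MYLK3, the cardiac myosin light chain kinase, ran from 3.83 to 11.6 FPKM, and CAMK2B was under the detection limit at 0.50 ± 0.546 FPKM. The catalytic subunit gene PRKACA was not analysed here. Gaps in transcript numbers were found for 11 of the 16 listed genes, RPS6KA3, CAMK2D and CAMK2B among them, so their sums may be partial.

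Genes of thick filament assembly and turnover were listed for 7 of 10, and 5 were detected. TRIM63, a ubiquitin ligase that acts on thick filament proteins, averaged 100.3 ± 16.6 FPKM. SMYD1, a methyltransferase needed for thick filament assembly in zebrafish and mouse, averaged 32.5 ± 4.53 FPKM, and TRIM55, a relative of TRIM63, 21.8 ± 3.29 FPKM. The muscle calpain CAPN3 was at 10.3 FPKM in library 5 and 2.81 to 3.84 FPKM in the others, and the chaperone gene HSP90AA1 was under the detection limit. Of 19 regulators of slow and fast fibre genes 13 were detected, led by TEAD1, a factor that binds muscle MCAT elements, at 66.0 ± 8.10 FPKM and MEF2C, a MADS-box factor of muscle, at 65.4 ± 10.2 FPKM. SOX6, a repressor of slow genes in mouse and zebrafish fibres, averaged 15.6 ± 3.00 FPKM, and the homeobox factor SIX4 14.4 ± 3.15 FPKM (SD, n = 5). TEAD4, a relative of TEAD1, and PROX1, a homeobox factor, varied most in this group. TEAD4 had 6.84 FPKM in library 4 and at most 0.05 FPKM in libraries 1, 2 and 5, and PROX1 had 5.27 in library 2 and was listed at 0 in libraries 3 and 4. MYBPC1 and MYBPC2 were higher than every detected gene of these 3 groups, which is what the background shares of 99.7% and 99.0% already give. Gaps in transcript numbers were found for 4 of 7 listed assembly genes and 11 of 15 listed regulators. HSP90AA1, CAPN3, TEAD1, MEF2C, SOX6, TEAD4 and PROX1 were among these, and their sums may be partial.

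Both members lay below the median spread of detected genes. The SD of log2(FPKM + 1) over the 5 libraries was 0.14 for MYBPC1 and 0.19 for MYBPC2, against a median of 0.25 over detected genes; the difference between the members was not tested, and without library 4 their SDs were 0.144 and 0.158. Of the 200 detected genes nearest to each in mean level, 10% had a smaller SD than MYBPC1 and 22.5% a smaller SD than MYBPC2. Their means ran from 109 to 13074 FPKM for MYBPC1 and from 96.9 to 1224 FPKM for MYBPC2, so the match in level is loose. Library 1 made up much of the MYBPC1 spread: without it the SD was 0.07, and without any other library 0.14 to 0.15. No library had that weight for MYBPC2, whose SD was 0.16 to 0.20 with any library left out.

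**Figure D5:**
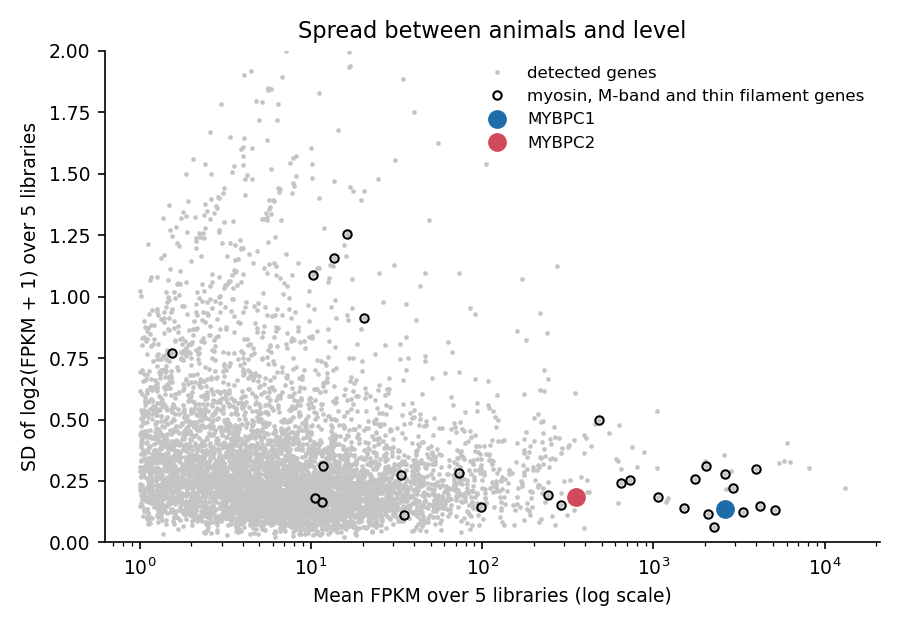
SD of log2(FPKM + 1) over the 5 libraries against mean FPKM (log scale) for the 6136 detected genes (grey), with the 29 filament and M-band genes as rings and the members as large points; 16 genes lie above the plotted range. MYBPC1 at 0.14 and MYBPC2 at 0.19 lie in the lower part of the cloud at their level.

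The genes most like each member across animals were sought by the root mean square difference between deviations from their own mean log2(FPKM + 1), among 1915 other named genes with a mean of at least 10 FPKM. For MYBPC1 these were USP9X, a deubiquitinase, at 0.016, HADHA, a subunit of the mitochondrial trifunctional protein of fatty acid oxidation, at 0.019, and CGGBP1, TMEM30A and CDC27 at 0.023 to 0.024, against a median of 0.19 over all genes compared. TPM2 stood at place 7 (0.028), TMOD1, a cap protein of the thin filament, at place 66 and MYL1 at place 80, whereas MYH7 was at place 1016. For MYBPC2 they were TECR, an enzyme of fatty acid elongation, at 0.023, and SEC24B, a coat protein of vesicles leaving the endoplasmic reticulum, KTN1, ZC3H12C and FBXW11 at 0.040 to 0.046, against a median of 0.24. MYOM1 was the nearest filament or M-band gene, at place 80. MYBPC1 took place 382 among the genes compared with MYBPC2, and MYBPC2 place 803 among those compared with MYBPC1. Such likeness rests on 5 libraries, and steady genes are close to each other by construction.

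Neither abundance was shared with the neighbours on the chromosome. The nearest named genes beside MYBPC1 were ARL1, a small GTPase of the Golgi, 114 kb away at lower coordinates and at 30.3 ± 5.02 FPKM, and CHPT1, a choline phosphotransferase, 11.5 kb away at higher coordinates and at 29.5 ± 5.99 FPKM (SD, n = 5). Beside MYBPC2 lay POLD1, the catalytic subunit of DNA polymerase delta, 8.84 kb away and at 1.40 ± 0.310 FPKM, and FAM71E1, 1.42 kb away, at 0.281, 0.0979, 0.261 and 0.346 FPKM in libraries 1, 2, 3 and 5 and listed at 0 in library 4. A locus with no symbol, from 65481772 to 65483013, lay within the span of MYBPC1 at 2.46 FPKM on average, 0.0936% of the level of MYBPC1. The strand setting of the counting is not given in the sources used here, so how reads were divided between this locus and MYBPC1 is not known.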

How the data were processed

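Total RNA of longissimus dorsi was sequenced with 1 library per animal, prepared with a NEBNext kit per the labels' protocols. The values are FPKM per transcript as deposited by the authors, per the file headers. HTSeq 0.6.0, DESeq2 1.10.1 and the build UMD3.1 are named in the submitters' processing notes, but not what each was used for. Aligner, FPKM estimator, strand setting and annotation are not given in the sources used here. Symbols placed 7423 genes in the RefSeq gene list of ARS-UCD2.0, and 7397 (99.6%) lay over the same place, so no build is claimed. Both members have listed transcripts with no gap in their numbers, while 34.7% of numbered genes have gaps. Among the latter are MYL2, TNNT1, TPM3, NEB, TPM1, MYOM3, NBR1 and OBSL1, whose sums may be partial. Transcripts missing above the highest listed number leave no gap, so the check cannot show that the members' sums are complete.

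Transcript FPKM were summed per gene identifier and analysed as log2(FPKM + 1), which understates the change of low genes. No depth, counting interval or floor can be given. Each member was set against all other genes with a mean of at least 1 FPKM by a moderated one-sample limma 3.58.1 test (R 4.3.3) of within-library log2 ratios, adjusted by Benjamini-Hochberg over 6135 genes. A two-sided exact permutation test over the signs of the 5 ratios stood beside it. Each SE given is the moderated SE of the limma fit, not the SE of the 5 values alone. In a simulation of MYBPC1 against 6135 genes, 82.0% of 100 ratios of 1 log2 unit, 97.0% of 100 ratios of -2 and 0.152% of 5935 ratios of 0 were called. The simulated ratios were independent and mostly centred on 0, whereas the real ones share MYBPC1 and mostly lie far from 0. These rates therefore do not carry over to the fits reported here. Alternatives were a pseudocount of 0.1, TPM rescaling, median-ratio size factors, other filters and leaving out each library. Tables were handled in Python 3.11.15 with pandas 2.3.3, scipy 1.17.1 and numpy 2.4.6, and plots drawn with matplotlib 3.10.9. The limma p-values set a mean log2 ratio between genes against the spread over these 5 animals, moderated over all ratios fitted. They do not cover errors of FPKM between genes, such as those from missing transcripts.

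Members, lists and tests were chosen with earlier results of these data known. Named genes were, in each of 7 lists, the 4 highest by mean FPKM and the 2 with the greatest SD of log2(FPKM + 1), the 2 named genes next to each member by mean on either side, the 5 most alike, and the nearest named neighbours on the chromosome; any others were named after values had been seen. No sequence of either gene was at hand, so none is shown. No sample column was left unmapped.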

Additional observations from a re-analysis of the deposited data

Results flagged for a closer look

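Values looked at were the levels of the members, of the transcripts of MYBPC2 and of every detected gene of the lists, the shares and ratios of the members, and their ratios to the named filament and M-band genes, TNNI2, MYL2 and NEB with a mean of at least 10 FPKM, beside 4 other slow and fast ratios. Of these 107 values, 14 had a library whose gap to the nearest other exceeded 0.71 of the whole range, where chance flags about 1 in 20; many of the 107 share a gene and are not independent. Library 4 stood apart in 8 of the 14, a count that depends on the scale. Levels and ratios were taken on the log2 scale, except MYBPC1 over MYBPC2. On the FPKM scale MYBPC2 over FHL1 (0.663) and over TNNI2 (0.699) lay under the limit, while MYH7 over MYLPF (0.715), high in library 1, passed it. MYBPC1 over MYBPC2 was 9.38 in library 4 and 6.71 to 7.48 elsewhere, a gap ratio of 0.7103 on the FPKM scale that stays under the limit on the log2 scale, at 0.674, an alternative added after the data were seen. The log2 ratio of MYBPC2 was -3.48 to MYLPF in library 4 and -2.81 to -2.67 elsewhere (gap ratio 0.819), and -1.99 to MYL1 against -1.53 to -1.46 (0.866). It was -3.59 to FHL1 against -3.00 to -2.77 (0.721), -3.95 to TPM2 against -3.55 to -3.42 (0.764), and -1.48 to TNNI2 against -0.82 to -0.61 (0.758). The log2 ratio of MYBPC1 to FHL1 was -0.36 in library 4 and -0.10 to -0.03 elsewhere (0.791). Library 4 also had the highest summed FPKM, 223251, and the second highest sum of fibroblast markers, 769 FPKM. A scale common to a whole library cancels in ratios taken within it, but for the added 1 FPKM. Beyond that, the part of both sums in these values was not tested.

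The other flagged values belong to partner genes. TNNT1 over TNNT3 was low in library 2, at -0.77 against -0.34 to -0.23 on the log2 scale (0.798). MYL6B was high in library 4, at 2909 FPKM against 1701 to 1959 (0.737 on the log2 scale). TPM3, a slow tropomyosin gene, was high in library 3, at 2390 FPKM against 1953 to 2044 (0.774). PRKAR2A was low in library 1, at 61.2 FPKM against 82.3 to 85.9 (0.872). CAPN3 was high in library 5, at 10.3 FPKM against 2.81 to 3.84 (0.779). OBSL1, a gene of the M-band list, was low in library 3, at 1.56 FPKM against 9.90 to 15.1 (0.788). EYA1, a transcriptional coactivator, was listed at 0 in library 1 against 3.04 to 5.42 FPKM (0.751). On the FPKM scale OBSL1 (0.616) and EYA1 (0.561) lay under the limit. Both have gaps in their transcript numbers, so their sums may be partial.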

How the results depend on the processing

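The log2 ratio of MYBPC1 to MYBPC2 (2.91) and of MYBPC2-202 to MYBPC2-201 (3.14) kept their direction and call under a pseudocount of 0.1, TPM rescaling and median-ratio size factors; with each library left out they ran from 2.83 to 2.95 and from 2.86 to 3.37, with adjusted p of at most 7.00e-07 and 0.00107. With the exact sign-flip test p was 0.0625 for both, at the same 2.91 and 3.14, and the counts of filament genes called higher or lower than MYBPC1 or MYBPC2 were 0, 0, 0 and 0, because 5 animals cannot pass the threshold. With a filter of 5 FPKM fewer genes were tested, and 3554 lay below MYBPC1 and 3506 below MYBPC2. Over 58 pairs of a member and a filament or M-band gene, 456 of 464 alternative values kept direction and call; MYBPC1 over MYLPF, near 0 throughout, turned to -0.015 without library 1 and -0.012 without library 5, and was 0.10 at most, without library 4. The share of detected genes steadier than MYBPC1 was 15.5%. It was 3.11% with TPM rescaling and 5.13% without library 1, but 23.4% with no filter, 23.6% without library 2, 21.5% without library 3 and 23.7% without library 4; for MYBPC2 it was 31.5%, and 24.3% to 39.1% under these and the other alternatives. No paired analysis was possible because the samples form 1 group. Depth is unknown, so the precision of low genes cannot be stated.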
